A study of Mus musculus with 4 samples.

Results

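The enzymes that write and remove DNA methylation were examined in lymphoid-primed multipotent progenitors (LMPPs) labelled as null for the transcription factor Lyl1 and in wild-type LMPPs. The set holds 8 genes: the DNA methyltransferases Dnmt1, Dnmt3a and Dnmt3b, the TET dioxygenases Tet1, Tet2 and Tet3, and the isocitrate dehydrogenases Idh1 and Idh2. Its members were chosen by name: every probe set of the array whose platform gene symbol is exactly one of these was taken, which gave 21 of 45037 probe sets, for 8 of the 18193 genes that the array reads with a probe set of their own.

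LMPPs are early blood progenitors that keep lymphoid and myeloid potential and have lost most erythroid and megakaryocytic potential. The sort from bone marrow kept lineage-negative cells that carried c-Kit, Sca-1 and high Flt3. The mutant group carried, by its labels, a Lyl1-null allele (2 libraries, labelled KO1 and KO2 here after their titles and called the KO-labelled libraries) and the control group was wild type (WT, 2 libraries), all from C57Bl/6 mice aged 6 to 8 weeks with no treatment in either group. RNA was amplified, labelled with biotin and read on 3′ expression arrays, 1 array per library, and precision is limited by having only 4 arrays. How the allele was made is not stated in the labels. Whether separate mice gave the libraries of a group is not stated in the labels, so the p-values reflect the spread between libraries, which may be technical. The values are log2 RMA expression values, so a difference of 1 is a 2-fold change. In bulk RNA of this kind, fewer cells of a type and less RNA per cell cannot be told apart.

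DNA methylation in mammals sits mainly on cytosines followed by guanine. Dnmt3a and Dnmt3b place it on unmethylated DNA, and Dnmt1, brought to newly replicated DNA by Uhrf1, copies it to the daughter strand. The TET enzymes oxidise methylcytosine, which leads to its removal, and they use 2-oxoglutarate, a product of Idh1 in the cytosol and of Idh2 in mitochondria. In human blood, DNMT3A, TET2, IDH1 and IDH2 are known as genes mutated in leukaemia and, for DNMT3A and TET2 above all, in clonal haematopoiesis. In mice, loss of Dnmt3a or of Tet2 expands the stem cell pool.

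The promoter sequences of the genes whose probe sets all lay on 1 side of wild type are shown first, as context for a series about a basic helix-loop-helix factor. Such factors bind the E-box core CANNTG, and Lyl1 is known to work in complexes with GATA factors. Each window, credited to RefSeq (build GRCm38.p6), runs from 250 bases before to 50 bases after a transcription start and is written 5′ to 3′ on the gene's strand. Capitals mark CANNTG, which matches on both strands wherever it matches on 1, and GATA on either strand (written TATC where it lies on the other).
Dnmt3b, chr2:153649199-153649498, plus strand: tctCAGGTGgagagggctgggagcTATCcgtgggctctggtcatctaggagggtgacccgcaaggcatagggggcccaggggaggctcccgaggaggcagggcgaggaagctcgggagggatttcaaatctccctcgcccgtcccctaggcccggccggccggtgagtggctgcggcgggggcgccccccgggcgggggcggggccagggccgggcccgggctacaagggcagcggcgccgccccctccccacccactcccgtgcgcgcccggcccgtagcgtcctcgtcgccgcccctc
Tet2, chr3:133544341-133544640, minus strand: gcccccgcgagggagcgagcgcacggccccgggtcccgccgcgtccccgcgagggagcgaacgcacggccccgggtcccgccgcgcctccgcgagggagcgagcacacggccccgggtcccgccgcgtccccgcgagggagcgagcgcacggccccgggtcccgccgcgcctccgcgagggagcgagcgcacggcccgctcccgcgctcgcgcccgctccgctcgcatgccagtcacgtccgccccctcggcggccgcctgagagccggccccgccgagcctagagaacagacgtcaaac
Tet3, chr6:83441629-83441928, minus strand: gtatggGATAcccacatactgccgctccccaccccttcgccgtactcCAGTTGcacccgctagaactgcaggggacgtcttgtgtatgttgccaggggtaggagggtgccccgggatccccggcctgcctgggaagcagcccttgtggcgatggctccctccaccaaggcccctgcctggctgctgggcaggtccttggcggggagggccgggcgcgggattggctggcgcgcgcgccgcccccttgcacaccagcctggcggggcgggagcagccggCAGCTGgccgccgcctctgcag

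The Dnmt3b window held 1 E-box core (CAGGTG) and 1 TATC, and the Tet3 window 2 E-box cores (CAGTTG and CAGCTG) and 1 GATA. The Tet2 window held neither word, which says only that these letters are not in this stretch. Over the 13 windows listed for the 8 genes, 9 held CANNTG (69.2%) and 8 held GATA (61.5%), against 72.3% and 57.9% of 32841 windows of the same length (mouse chromosome 18 left out), and the 2 words shared no bases in any of the 13. A match of letters is a description and not a binding site. Of CG, the dinucleotide where DNA methylation mainly sits, the 13 windows held 2 (a Dnmt1 window) to 57, with a median of 23, against a median of 7 over all windows. The 57 were in Tet2, a number reached by 0.152% of all windows. Dnmt3b had 30 and Tet3 had 22.

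Lyl1, read first as the check of the labels, stood at 5.14 in the library labelled KO1 and at 10.32 in the library labelled KO2, against 12.34 and 12.29 in WT. The second of these values, 25.1% of the WT mean, goes against its label. That library also stood apart elsewhere: it lay 2-fold or more from each other library in 518 to 859 of 11196 genes, against 42 to 128 for pairs of the other 3, with Xist, expressed from the inactive X chromosome, at 14.26, while it read 5.81 to 6.30 in the rest. Eif2s3y, a Y-linked gene, was at 8.44 in it and between 10.07 and 10.15 elsewhere. Whether it holds cells of more than 1 genotype or sex was not tested. The members' values are therefore given for each KO-labelled library on its own. No source used here places the Lyl1 probe set relative to the change in the allele. The sorting markers Kit and Flt3 and the progenitor marker Cd34 read between 8.97 and 12.87 in all 4 libraries, and Sca-1 (Ly6a) was not analysed here. Of the lineage markers, Cd3g, Cd3d, Itgam, Adgre1, Ms4a1 and Pax5 stayed below 5.69, the level used as the expression filter, while Cd3e, Cd4 and Cd8a lay between 5.72 and 6.85. Other listed markers were well above it in all libraries: the B-lineage genes Cd79b and Vpreb1 lay between 9.53 and 10.39, Nkg7 of cytotoxic lymphocytes between 11.18 and 11.66, and the macrophage receptor Csf1r between 10.32 and 10.71.

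No member passed the test over all probe sets. In limma, with Benjamini-Hochberg adjustment over the 22519 probe sets whose mean reached the filter, 0 of 20 member probe sets and 2 of all (0.00888%) passed the adjusted threshold of 0.05. Those 2, named here after their values were seen, were probe sets of Ctse (−4.02, adjusted p = 0.0348) and Lrmda (3.83, adjusted p = 0.0397). The unadjusted p was under 0.05 for 6 member probe sets, for Dnmt3a (2), Tet1 (2), Dnmt3b and Tet2, all lower, against 7.39% of all probe sets in either direction and 5.6% lower. Not all of these held under other processing. With quantile normalization the limma p rose to 0.0965 and 0.135 for Tet1 and 0.163 for Tet2, and the others stayed under 0.05. With the replicate number as a block, only the 2 of Dnmt3a did. A dim Idh1 probe set was left out of the tests, since its mean of 5.56 lay below the filter. Both KO-labelled libraries lay below both WT libraries in 9 of the 20 tested probe sets and above them in 2. Among all tested probe sets, 26.4% lay below and 17.4% above without overlap. The median difference of the 20 from the WT mean was −0.17 in the library labelled KO1 and −0.46 in the library labelled KO2, against −0.02 and −0.10 over all tested probe sets. With untested probe sets included, the medians were −0.18 and −0.46 for the 21 members, against 0.02 and 0.09 for all 45037. Probe sets of a gene share their transcript and are not independent, so these shares describe the set and test nothing.

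**Figure D1:**
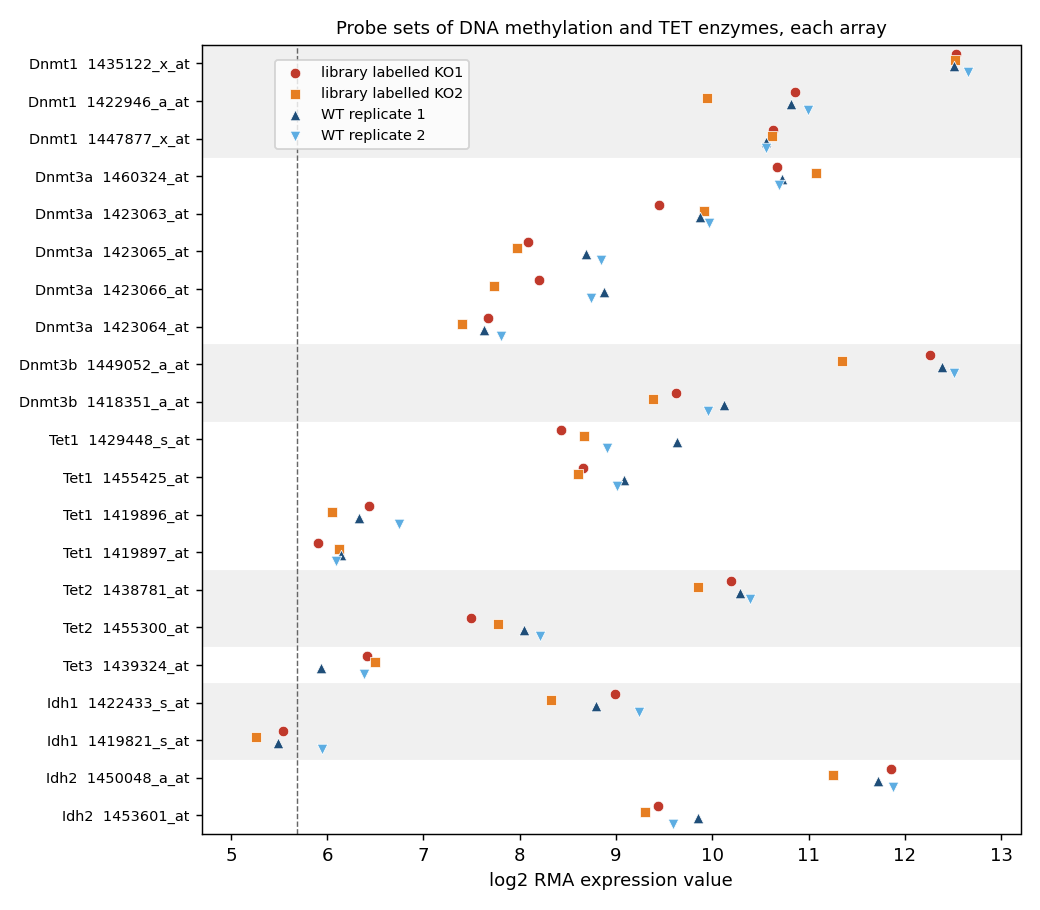
Expression of each member probe set in each array (log2 RMA value, horizontal axis); rows are probe sets grouped by gene, and symbols stand for single libraries, offset vertically so that none hides another. Both KO-labelled libraries lie left of both WT libraries in every row of Dnmt3b and Tet2, and the dashed line is the expression filter at 5.69, which the mean of 1 Idh1 probe set does not reach.

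Dnmt3b, a de novo methyltransferase, read lower in both of its probe sets. The probe set 1449052_a_at was at 12.26 in the library labelled KO1 and 11.34 in the library labelled KO2, against 12.38 and 12.51 in WT. The other, 1418351_a_at, was at 9.62 and 9.38 in the KO-labelled libraries, against 10.12 and 9.95 in WT. Both lay below WT without overlap, as in 304 of the 2855 genes with 2 tested probe sets (10.6%). Their differences were −0.65 (SE 0.32, adjusted p = 0.611) and −0.53 (SE 0.18, adjusted p = 0.611). The probe sets parted in how the KO-labelled libraries compared with each other. On 1449052_a_at, the library labelled KO2 was at 46.6% of the WT mean and the library labelled KO1 at 87.7%. On 1418351_a_at these were 63.7% and 74.9%.

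Dnmt3a, the other de novo methyltransferase, was read by 5 probe sets that did not read alike, although the annotation lists the same accession for all of them. A pair of them, 1423065_at and 1423066_at, was lower in both KO-labelled libraries. On 1423065_at the KO-labelled libraries were at 8.09 and 7.97, against 8.69 and 8.84 in WT, a difference of −0.74 (SE 0.17, unadjusted p = 0.00576, adjusted p = 0.611). On 1423066_at they were at 8.20 and 7.74, against 8.87 and 8.74 in WT, a difference of −0.84 (SE 0.21, adjusted p = 0.611), the most negative among the members. In these 2 the gap between the groups was several times the gap between the WT libraries, and the means of the KO-labelled libraries were 60.0% and 55.9% of WT.

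The remaining Dnmt3a probe sets overlapped between the groups. On 1423063_at the value was 9.44 in the library labelled KO1 and 9.91 in the library labelled KO2, against 9.88 and 9.96 in WT, so that only the first of these was low. On 1423064_at the KO-labelled libraries were at 7.67 and 7.40, against 7.63 and 7.81 in WT. The brightest, 1460324_at, went the other way in the library labelled KO2, at 11.08, while the library labelled KO1 was at 10.68, against 10.72 and 10.69 in WT. The differences of the 5 thus ran from −0.84 to 0.17, a spread of 1.01. Among the 145 genes with 5 tested probe sets the median spread was 0.57, and 11% had a spread as wide as that of Dnmt3a or wider. Which exons or 3′ ends the probe sets read is stated by no source used here.

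Dnmt1, the maintenance methyltransferase of dividing cells, was level in 2 of its 3 probe sets. On 1435122_x_at the KO-labelled libraries were at 12.53 and 12.52, against 12.51 and 12.65 in WT, a difference of −0.05 (SE 0.16). On 1447877_x_at they were at 10.63 and 10.62, against 10.56 and 10.56 in WT, a difference of 0.06 (SE 0.16). That is a separation without overlap, though of a size far under the SE, and it changed sign when the arrays were centred on their medians. The third, 1422946_a_at, was at 10.86 in the library labelled KO1, within the WT values of 10.82 and 11.00, and at 9.95 in the library labelled KO2. This single library, at 51.4% of the WT mean on 1 of 3 probe sets, carried the difference of −0.50 (SE 0.32, adjusted p = 0.618).

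**Figure D2:**
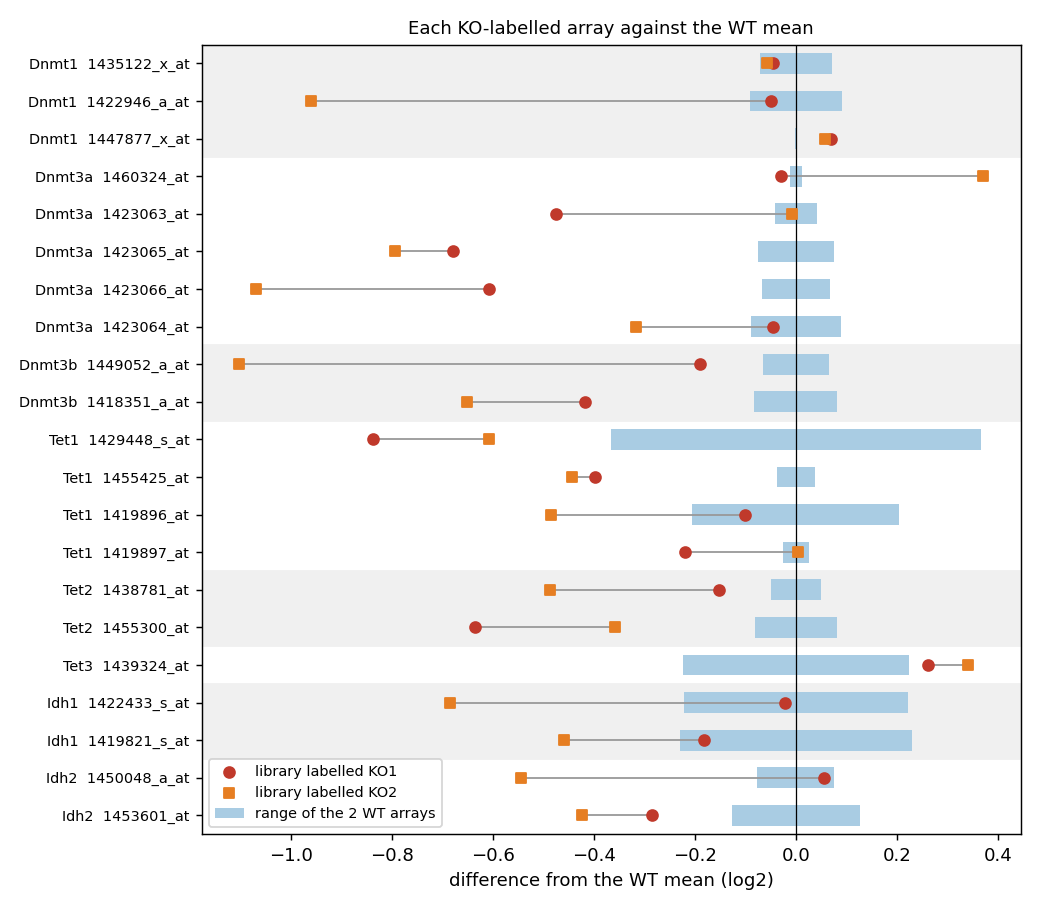
Difference of each KO-labelled library from the WT mean (log2, horizontal axis) for each member probe set; the blue bars span the 2 WT libraries and a grey line joins the KO-labelled libraries. Dnmt3b, Tet2 and the Dnmt3a probe sets 1423065_at and 1423066_at have both KO-labelled libraries left of the bar. So do the Tet1 probe sets 1429448_s_at and 1455425_at and Idh2 1453601_at. Dnmt1 1422946_a_at, Idh1 and Idh2 1450048_a_at are low in the library labelled KO2 alone.

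Tet2, the TET enzyme most often lost in human myeloid clones, read lower in both probe sets, by modest amounts. On 1438781_at the KO-labelled libraries were at 10.19 and 9.86, against 10.29 and 10.39 in WT, a difference of −0.32 (SE 0.19, adjusted p = 0.612). On 1455300_at they were at 7.49 and 7.77, against 8.05 and 8.21 in WT, a difference of −0.50 (SE 0.19, unadjusted p = 0.040, adjusted p = 0.611). Both lay below WT without overlap, as in the 10.6% of genes given for Dnmt3b, and the order of the KO-labelled libraries was opposite in them: the library labelled KO2 was the lower on the first probe set and the library labelled KO1 on the second.

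Tet1, which carries a CXXC domain that binds CG-rich DNA, was below WT in its 2 brighter probe sets. On 1455425_at the KO-labelled libraries were at 8.65 and 8.61, against 9.09 and 9.01 in WT, a difference of −0.42 (SE 0.16, unadjusted p = 0.0429, adjusted p = 0.611). Here the replicates of each group lay close together, and the mean of the KO-labelled libraries was 74.7% of WT. On 1429448_s_at they were at 8.43 and 8.66, against 9.64 and 8.90 in WT, a difference of −0.72 (SE 0.28, adjusted p = 0.611). The WT libraries themselves were 0.73 apart there, as much as the difference, and without WT replicate 1 it shrank to −0.36. The dim probe sets 1419896_at and 1419897_at, between 5.90 and 6.74 in all libraries, overlapped between the groups. The first differed from the WT mean by −0.10 in the library labelled KO1 and −0.48 in the library labelled KO2, and the second by −0.22 and 0.00404.

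Tet3, the third TET enzyme, had 1 probe set (1439324_at), just above the filter, and a positive difference. It was at 6.42 and 6.50 in the KO-labelled libraries, against 5.93 and 6.38 in WT, a difference of 0.30 (SE 0.21, adjusted p = 0.627). The WT libraries were 0.45 apart, more than the groups, and the lower KO-labelled value was close to the higher WT value. The difference was 0.0778 without WT replicate 1 and 0.52 without WT replicate 2.

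Idh1 and Idh2, which supply 2-oxoglutarate while reducing NADP, were low mainly in the library labelled KO2. Idh1 on 1422433_s_at was at 8.99 in the library labelled KO1 and 8.33 in the library labelled KO2, against 8.79 and 9.23 in WT, and the groups overlapped (difference −0.35, SE 0.29, adjusted p = 0.658). The untested 1419821_s_at was at 5.54 and 5.26, against 5.49 and 5.95 in WT. Idh2 on 1450048_a_at was at 11.85 in the library labelled KO1 and 11.25 in the library labelled KO2, against 11.72 and 11.87 in WT, with a difference of −0.24 (SE 0.24, adjusted p = 0.709). Its second probe set, 1453601_at, had no overlap, at 9.44 and 9.30 in the KO-labelled libraries against 9.85 and 9.60 in WT (difference −0.35, SE 0.18, adjusted p = 0.611). On 1422433_s_at and 1450048_a_at, the library labelled KO1 lay within 0.06 of the WT mean.

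The calls depended on which KO-labelled library was compared with WT. With the library labelled KO1 alone, where Lyl1 lay below the filter, 0 of 20 member probe sets passed, against 0.0488% of all, and 5 had an unadjusted p under 0.05, against 6.69%. Those 5 were Dnmt3a 1423063_at, 1423065_at and 1423066_at, Tet1 1429448_s_at and Tet2 1455300_at, all lower. With the library labelled KO2 alone, 4 of 20 passed, all lower, against 10.1% of all probe sets in either direction and 8.33% lower. An unadjusted p under 0.05 was reached by 9, against 34.9% of all. The 4 were Dnmt1 1422946_a_at (−0.96, adjusted p = 0.0387), Dnmt3a 1423065_at (−0.79, adjusted p = 0.0481) and 1423066_at (−1.07, adjusted p = 0.0309), and Dnmt3b 1449052_a_at (−1.10, adjusted p = 0.0293). In each of these fits the lone KO-labelled library is assumed to vary like WT, so the calls compare that library with WT, and both comparisons share the WT libraries. In the library labelled KO1 and the library labelled KO2, Dnmt3a 1423065_at was at −0.68 and −0.79 and 1423066_at at −0.61 and −1.07. Dnmt1 1422946_a_at was at −0.05 and Dnmt3b 1449052_a_at at −0.19 in the library labelled KO1.

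The library labelled KO2 read lower among the brighter probe sets, although over all 45037 its median difference from WT was 0.09, and the members' values there stand beside that shift. For the 8 member probe sets with a mean from 8 to 10 its median difference from WT was −0.63, against −0.196 for all probe sets in that range, of which 68% were negative. For 5 members from 10 to 12 it was −0.49, against −0.11 for all. In the library labelled KO1 the members' medians in these ranges were −0.45 and −0.03, against −0.05 and −0.01 for all probe sets. The part of this shift in the members' values was not tested.

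Markers of other cells differed between the groups as well, with 0 past the adjusted threshold in limma. Of the 10 neutrophil markers 6 passed the filter, and 5 of those had an unadjusted p under 0.05, against 6.41% of all genes. Of these, Ngp, Ltf, Camp and S100a8 were higher and Mpo was lower. Ltf lay below the filter in the WT libraries, at 4.93 and 5.10. Its mean of 5.75 reached the filter only through the KO-labelled libraries, at 6.77 and 6.19. The share of tested neutrophil markers with a low p therefore depends in part on the filter. Ngp, a secondary granule gene, was at 8.87 and 8.73 in the KO-labelled libraries, against 7.05 and 6.55 in WT. The list's summed linear level was 4646 and 3285 in the KO-labelled libraries, against 4253 and 5574 in WT, with Mpo the largest part. The tested Elane overlapped between the groups (−0.02). Of the markers below the filter, Lcn2 (1.36), S100a9 (0.89) and Mmp8 (0.51) lay above WT without overlap. Cd177, also below it, overlapped and lay between 3.70 and 4.09 in all libraries. Mpo, a primary granule enzyme, was at 11.39 and 10.68, against 11.79 and 12.30 in WT. Among the progenitor genes, Kit was at 9.56 and 8.97, against 10.07 and 10.27 in WT. With Flt3, Cd34, Ptprc, Cd48 and Spn, of which only Flt3 was a marker of the sort, 6 of 6 lay below WT without overlap, against 24% of all genes. Of the 8 tested erythroid and megakaryocyte genes 3 had an unadjusted p under 0.05, all lower: Car1, Car2 and Pf4, at −1.14, −0.86 and −0.99. For Car1 the WT libraries, at 8.57 and 7.18, lay further apart than the group means. In this list 4 genes lay below WT without overlap and 1 above, Itga2b (0.38). Alas2 read 0.63, with overlap. Single genes with an unadjusted p under 0.05 in other lists were Vpreb1 (0.56), Klrd1 (−0.76) and Itgax (0.57). The stromal and endothelial list had 0 of 7, but 4 of these lay above WT without overlap and 0 below. Of 5 tested T and NK cell genes 4 lay above WT without overlap and 1, Klrd1, below. Of 6 tested macrophage and dendritic cell genes 2 lay above, Itgax among them, and 4 below. Of 5 tested B-cell genes 2 lay above, Vpreb1 among them, and 1 below, Igll1 (−0.50). Over all genes 24% lay below WT and 18.7% above. The part of these markers in the members' values was not tested.

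Genes of related lists, which range from methylation factors to the citric acid cycle and S phase, showed no call with all 4 libraries either. Over the 90 genes of 7 related lists that passed the filter, each read from its brightest probe set and members left out, 0 passed in the limma fit of all 4 libraries, against 0.00893% of all genes, and 1 had an unadjusted p under 0.05, against 6.41%. With the library labelled KO1 alone 0 of the 90 passed, against 7 of the 11196 genes read this way, and with the library labelled KO2 alone 7 of the 90 passed, 6 of them lower, against 1022 of the 11196. In 25 the KO-labelled libraries lay below WT and in 14 above (27.8% and 15.6%, against 24% and 18.7% of 11196 genes). Read the same way, 3 of the 8 members lay below and 1 above. The median difference of the 90 was −0.15, against −0.28 for the 8 members and −0.05 for all genes.

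Readers and maintenance factors of DNA methylation, 17 genes, had 15 negative differences, against 56.9% of all genes, and a median of −0.196. In 7 the KO-labelled libraries lay below WT without overlap, against 24% of all genes. Zbtb4, a zinc finger protein that binds methylated DNA, had the smallest p: it was at 9.75 and 9.19 in the KO-labelled libraries, against 10.03 and 10.29 in WT (−0.69, SE 0.24, adjusted p = 0.611). Mbd4, a glycosylase that removes thymine opposite guanine and is also in the base excision list, was at 6.77 and 6.96, against 7.06 and 7.36 in WT (−0.34, SE 0.19, adjusted p = 0.611). Uhrf1, named here after its value was seen as the partner of Dnmt1, was at 11.37 and 11.14, against 11.37 and 11.49 in WT. Its difference, −0.17 (SE 0.18), was within the spread of the libraries.

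Enzymes that make or use 2-oxoglutarate and its neighbours in the citric acid cycle, 17 genes beside Idh1 and Idh2, had 15 negative differences, and 5 lay below WT without overlap, a share near the 24% of all genes. Their median was −0.06 in the library labelled KO1 and −0.34 in the library labelled KO2. Glud1, glutamate dehydrogenase, was at 11.19 and 11.13, against 11.52 and 11.42 in WT (−0.31, SE 0.16, adjusted p = 0.611). Dlst, a subunit of the 2-oxoglutarate dehydrogenase complex, was at 11.95 in the library labelled KO1 and 10.73 in the library labelled KO2, against 11.98 and 12.15 in WT. As with Idh2 on 1450048_a_at, the low value was that of a single library. Other subunits of that complex, named here after their values were seen, were not low in that library. Ogdh was at 8.49 in the library labelled KO1 and 9.82 in the library labelled KO2, against 8.97 and 8.68 in WT. Dld was at 7.13 and 7.99 in the same order, against 8.31 and 7.53 in WT. The TET partner Ogt, a glycosyltransferase, was at 11.71 and 11.52, against 11.86 and 12.15 in WT (−0.39, SE 0.19, adjusted p = 0.611), and of the 4 tested genes of its list 3 had a negative difference. The fourth, Cxxc4, a CXXC protein, was at 6.02 and 6.49, against 5.86 and 6.01 in WT (0.32, SE 0.22, adjusted p = 0.625).

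Genes of active demethylation and base excision repair, 17 tested, went both ways, with 11 negative, 6 positive and a median of −0.08. Gadd45g, a stress-induced gene, read −0.45 (SE 0.23) and Ung, which removes uracil from DNA, 0.34 (SE 0.18), neither past the threshold (adjusted p = 0.611 each). In the library labelled KO1 and the library labelled KO2 these were −0.21 and −0.69 for Gadd45g and 0.25 and 0.43 for Ung. The 13 genes of one-carbon metabolism and the methionine cycle, which supplies the methyl donor, had 7 negative and 6 positive differences. Ahcyl1, a relative of the enzyme that clears S-adenosylhomocysteine, read −0.41 (SE 0.16) and Mtrr, which reactivates methionine synthase, −0.44 (SE 0.19), both at an adjusted p of 0.611. By library, in the same order, they were −0.33 and −0.48 for Ahcyl1 and −0.28 and −0.61 for Mtrr. Genes of S phase and proliferation, 22 tested, had a median of 0.06 in the library labelled KO1 and −0.16 in the library labelled KO2. Tyms, thymidylate synthase, read −0.70 (SE 0.29, adjusted p = 0.611) and the proliferation marker Mki67 −0.32 (SE 0.17, adjusted p = 0.611). By library Tyms was at −0.38 and −1.01 and Mki67 at −0.22 and −0.42. Among the other DNA methyltransferase genes, Trdmt1, which methylates transfer RNA, read −0.15 (SE 0.28, adjusted p = 0.837), from 0.24 in the library labelled KO1 and −0.55 in the library labelled KO2, and the cofactor Dnmt3l lay below the filter, at 4.33 and 4.88 in the KO-labelled libraries against 4.36 and 4.36 in WT.

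**Figure D3:**
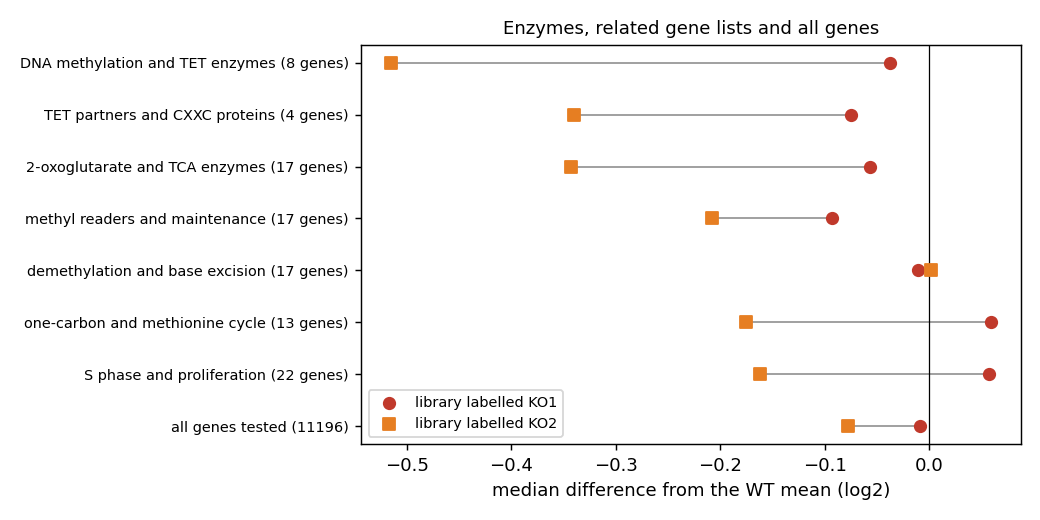
Median difference from the WT mean (log2, horizontal axis) in each KO-labelled library, for the 8 members, for 6 related lists without the members, and for all genes tested, each gene read from its brightest probe set. The library labelled KO2 lies left of the one labelled KO1 in every row but demethylation and base excision, with medians in that order of −0.51 and −0.04 for the members and −0.08 and −0.01 for all genes.

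The genes whose profile was closest to a member's were found over the 4 libraries, as the smallest root mean square distance (in log2 units) between profiles centred on the WT mean, for members at least 0.5 from that mean in a KO-labelled library, each read only from its brightest probe set. Closest to Dnmt3b 1449052_a_at were St7 (0.0131) and Vezf1 (0.0133), at −0.18 and −0.199 in the library labelled KO1 and at −1.125 and −1.121 in the library labelled KO2. Closest to Tet1 1429448_s_at were Bex2 (0.0826) and Per1 (0.0833). Idh1 1422433_s_at was nearest to Coq8a (0.0148) and Commd7 (0.0202), and Idh2 1450048_a_at to Kdm4a (0.015) and Mindy1 (0.0169). With 4 libraries and 10692 other genes to search, near neighbours arise easily, and the likeness is a description only.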

How the data were processed

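Expression was measured in 4 libraries of sorted LMPPs, 2 per group, assigned by their titles. The deposited values are log2 expression values per probe set that the authors made with RMA, a method that corrects background, equalises distributions and summarises probes, according to the submitters' processing notes. No source used here gives its version, or says whether other arrays were normalized together with these. The values were used as deposited (column medians 5.65 to 5.76). Gene symbols came from the platform annotation.

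Probe sets were tested where their mean reached the median of all means, 5.69, with limma 3.58.1 under R 4.3.3 (lmFit, eBayes, two-sided, Benjamini-Hochberg). The test was tried on simulated data with known answers. Each related list was read from the brightest probe set per gene, and up to 4 genes past the threshold, or else the 2 with the smallest p, were named. The members and lists were chosen with earlier results of these data known. Alternatives covered the filter, the reading per gene, normalization, the variance prior, array weights, replicate blocks and each library left out. Figures used matplotlib 3.10.9 under Python 3.11.15.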

Additional observations from a re-analysis of the deposited data

How the results depend on the processing

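The count of member probe sets past the threshold stayed at 0 under all alternatives but those that leave out a library, where it ran from 0 to 4; the 4 came without the library labelled KO1. The count over all probe sets, 2 with all libraries, was 1 with the filter at the 70th percentile, 1 with 1 probe set per gene, 0 with the mean of a gene's probe sets, 1 with median centring and 10 with array weights. With a library left out it ran from 0 (without either WT library) to 2269 (without the library labelled KO1), with 11 without the library labelled KO2. The replicate number as a block gave 0 member calls and 3 calls over all probe sets. The labels do not say whether same-numbered libraries were handled together. Deviations of same-numbered libraries from their group means correlated at −0.38 over probe sets. With 2 libraries per group, the opposite pairing has the same correlation with a positive sign. The crossed replicate block, which uses that pairing, gave 0 and 2 calls.

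Of 253 member values under the alternatives, 6 changed sign. Dnmt1 1447877_x_at read −0.0115 with median centring. With a library left out, Dnmt1 1435122_x_at ran from −0.12 to 0.0197 (without WT replicate 2). Dnmt3a 1460324_at read −0.37 as the mean of the gene's probe sets and, with a library left out, ran from −0.0303 (without the library labelled KO2) to 0.37. Tet1 1419897_at ran from −0.22 to 0.004 (without the library labelled KO1), and Idh2 1450048_a_at from −0.54 to 0.056 (without the library labelled KO2). The reversal for Dnmt3a under the mean comes from the other probe sets that enter it; the cause of the rest was not tested beyond the library left out. With the stricter filter 17 of the 20 member probe sets were tested. The 3 left out are too dim for it. Tet3 and the dim Tet1 and Idh1 probe sets lie near the filter, where signal over background limits what can be seen.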
